A study of Mus musculus with 27 samples.

Results

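The 9 genes of amino acid breakdown described here were followed through the liver RNA-seq of 27 mice, namely Tat, Hpd, Hgd and Fah of the tyrosine route, Tdo2, Kmo and Haao of the tryptophan (kynurenine) route, and the transaminase genes Got1 and Gpt. They were chosen by symbol, with earlier results of these data known, so counts of them beside shares of all genes are descriptions. All 9 of the 9 were found among the 55414 genes counted and among the 14114 averaging 10 or more counts over the libraries, which were tested. Lowest and highest raw counts in any library were 1491 (Kmo) and 62507 (Hpd). Female Balb/c mice aged 8 weeks received intraperitoneal CCl4, a hepatotoxin that produces liver fibrosis, or its vehicle olive oil, for 2 weeks. Without CCl4 there were 4 control mice (PBS into the tail vein per the labels, a carboxymethyl cellulose gavage per the methods), 3 mice given 4MU, 3 given siLuc-LNP and 3 given siHAS2-LNP. With CCl4 there were 2 mice given CCl4 alone and 4 in each group given CCl4 with 4MU, with siLuc-LNP or with siHAS2-LNP. 4MU (4-methylumbelliferone, an inhibitor of hyaluronan synthesis) was given daily by gavage at 600 mg/kg. The siRNA against hyaluronan synthase 2 and the control siRNA against luciferase were carried in lipid nanoparticles, at 1 mg/kg and then 0.5 mg/kg. No vehicle gavage or empty nanoparticle is named for the CCl4 mice, so a treatment cannot be told apart from its route and carrier when set against CCl4 alone. RNA came from total liver homogenate, and fewer hepatocytes and less RNA per hepatocyte cannot be told apart in such samples.

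Tyrosine is broken down mainly in hepatocytes. Tat removes its amino group, Hpd turns the resulting 4-hydroxyphenylpyruvate into homogentisate, Hgd opens the homogentisate ring, and Fah makes the last cut, to fumarate and acetoacetate. Tdo2 opens the ring of tryptophan at the entry to the kynurenine route, Kmo hydroxylates kynurenine, and Haao opens the ring of 3-hydroxyanthranilate on the way to quinolinate and NAD. Got1 and Gpt encode the cytosolic aspartate and alanine transaminases, which move amino groups between amino acids and keto acids and whose activity in serum is a clinical sign of liver injury. Tat is known as a glucocorticoid-induced gene of the liver.

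The genes lie apart from each other in the genome (GRCm39, GENCODE vM39). Tat lies on the plus strand at chr8:110717063-110726435, Hpd on the minus strand at chr5:123309870-123320817, Hgd on the plus strand at chr16:37400515-37452388 and Fah on the minus strand at chr7:84232788-84255930. Tdo2 lies on the minus strand at chr3:81864248-81883509, Kmo on the plus strand at chr1:175447947-175489683 and Haao on the minus strand at chr17:84138583-84155392. Got1 lies on the minus strand at chr19:43488188-43513674 and Gpt on the plus strand at chr15:76579616-76583890. Exons of 4 of them overlap exons of a gene on the other strand, by 2004 bases for Tdo2 (Ctso), 875 for Gpt (Gm56705), 504 for Haao (Gm56902) and 188 for Kmo (Fh1). The library kit keeps strand, but whether the counting used it is not stated, so reads in those stretches may belong to either gene.

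The bases before the start are shown for Hpd, Hgd, Fah and Haao, 4 of the 6 genes called lower in CCl4 against control mice. They are also shown for Tdo2 and Kmo, whose levels did not pass the test, but not for Tat and Got1, which were called lower too. Each run is the 250 bases upstream of the RefSeq start (RefSeq, GRCm38.p6), read 5′ to 3′ on the strand of the gene. Capitals mark matches, on either strand, to any of 5 motifs: TTGCNNAA (C/EBP-like), CAAAGTCCA (HNF4-like), GTTAATNAT (HNF1-like), AGAACA (a glucocorticoid receptor half-site) and TATAAA.
Hpd promoter, chr5:123182724-123182973, minus strand: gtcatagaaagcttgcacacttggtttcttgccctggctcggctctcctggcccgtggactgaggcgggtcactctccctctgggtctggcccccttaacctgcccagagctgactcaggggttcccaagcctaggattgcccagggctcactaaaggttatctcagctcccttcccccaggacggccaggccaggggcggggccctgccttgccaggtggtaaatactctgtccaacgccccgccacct
Hgd promoter, chr16:37579903-37580152, plus strand: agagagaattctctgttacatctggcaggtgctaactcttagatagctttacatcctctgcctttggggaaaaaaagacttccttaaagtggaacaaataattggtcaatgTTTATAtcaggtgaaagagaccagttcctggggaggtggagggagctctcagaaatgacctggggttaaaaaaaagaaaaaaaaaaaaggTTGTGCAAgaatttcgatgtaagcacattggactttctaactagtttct
Fah promoter, chr7:84605943-84606192, minus strand: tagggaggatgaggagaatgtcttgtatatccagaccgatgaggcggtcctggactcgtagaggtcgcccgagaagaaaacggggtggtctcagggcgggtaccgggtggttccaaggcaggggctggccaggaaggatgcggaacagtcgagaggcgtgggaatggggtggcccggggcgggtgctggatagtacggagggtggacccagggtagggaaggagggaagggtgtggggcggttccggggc
Haao promoter, chr17:83846791-83847040, minus strand: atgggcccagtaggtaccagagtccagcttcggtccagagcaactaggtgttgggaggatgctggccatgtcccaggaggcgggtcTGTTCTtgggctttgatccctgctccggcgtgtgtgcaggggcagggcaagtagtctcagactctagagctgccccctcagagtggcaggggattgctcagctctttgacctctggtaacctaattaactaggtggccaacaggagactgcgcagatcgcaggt
Tdo2 promoter, chr3:81975729-81975978, minus strand: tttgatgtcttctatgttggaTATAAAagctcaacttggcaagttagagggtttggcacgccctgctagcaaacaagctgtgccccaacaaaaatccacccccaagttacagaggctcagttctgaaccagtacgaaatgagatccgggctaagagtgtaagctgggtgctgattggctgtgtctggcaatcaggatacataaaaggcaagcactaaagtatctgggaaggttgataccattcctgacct
Kmo promoter, chr1:175631943-175632192, plus strand: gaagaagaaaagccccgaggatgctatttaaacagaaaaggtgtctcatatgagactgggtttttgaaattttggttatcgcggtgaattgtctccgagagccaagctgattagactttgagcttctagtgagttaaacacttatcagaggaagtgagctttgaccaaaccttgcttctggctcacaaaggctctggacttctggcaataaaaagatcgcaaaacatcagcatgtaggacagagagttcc

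Of the 9 genes, 8 had a promoter entry. Hgd held a match to TTGCNNAA that began 49 bases before the start, a motif present in 9.56% of the 32851 promoters of the same length. TATAAA, present in 12.4% of promoters, matched in Hgd and Tdo2, at 139 and 229 bases before the start. Haao held the reverse complement of AGAACA, present in 16.1% of promoters, 164 bases before the start. Hpd, Fah, Kmo and also Tat and Got1 held none of the 5, and CAAAGTCCA and GTTAATNAT, present in 0.384% and 0.737% of promoters, matched in none of the 8. None of the 5 motifs was thus shared by Hpd, Hgd, Fah and Haao, and other motifs were not searched. Their GC content ranged from 38.8% in Hgd to 64.4% in Fah, against a median of 52.4% over all promoters.

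The 27 libraries held 7044386 to 29425937 counts, the lowest being CCl4 + siHAS2-LNP mouse 4. Levels are given in CPM, in which the counts of each library are scaled to the same total with edgeR's TMM factors. Has2, the target of siHAS2-LNP, had 0 counts in 25 of 27 libraries and at most 2, so its knockdown could not be checked at this depth. The 10 hepatocyte markers summed to 214157 to 246056 CPM in control mice and to 180078 and 110371 CPM in CCl4 mice 1 and 2. All 10 were detected in every group, while the 4 kidney tubule markers, of another organ with an active kynurenine route, summed to at most 0.0977 CPM in any library. CCl4 mouse 2 was the lowest of all 27 mice for 7 of the 9 genes (all but Got1 and Kmo). Calls that set a group against CCl4 mice are therefore also described without it, except for cell type markers and for the alternative scalings, filters and fits.

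Per length, Hpd was the most abundant of the 9 in control mice, at 867 RPKM (CPM per kilobase of exon). Tat followed at 395 RPKM, Tdo2 at 228, Fah at 163, Haao at 130, Hgd at 126, Gpt at 103, Got1 at 53.1 and Kmo at 35.8 RPKM. In CCl4 mice the order changed, with Hpd at 252 RPKM and Tdo2 next at 200 RPKM, while Haao, at 32.0 RPKM, came below Kmo at 38.3 RPKM.

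**Figure D1:**
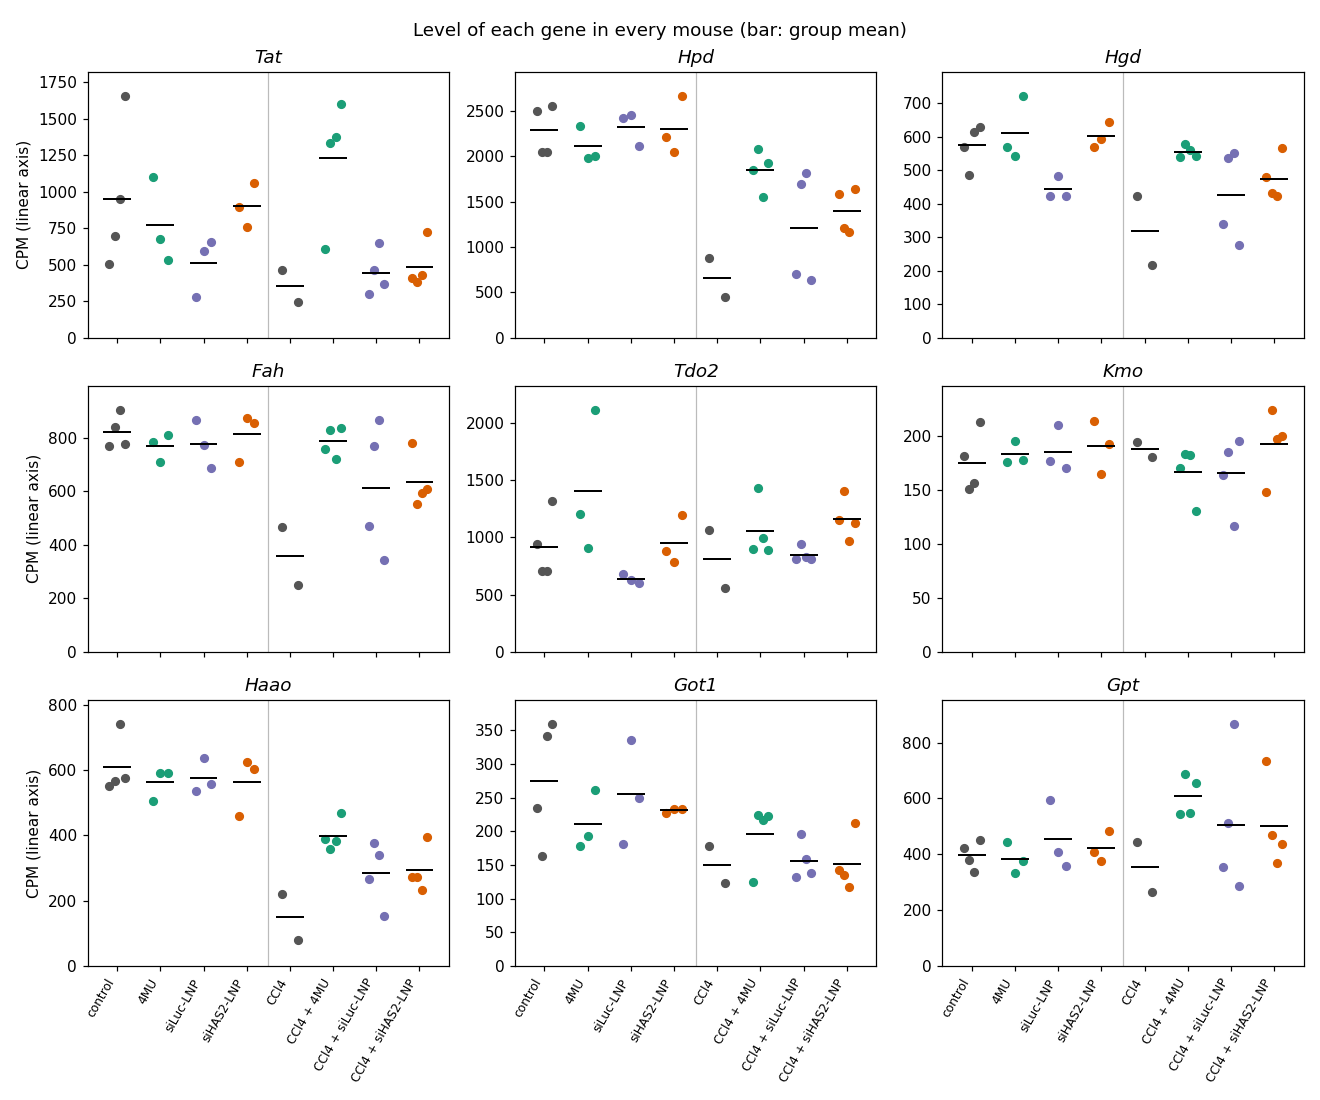
Level in CPM (linear axis) of each of the 9 genes in every mouse (points) with the group mean (bars), for the 4 groups without CCl4 (left of the grey line) and the 4 with CCl4. Both CCl4 mice lie below all 4 control mice for Tat, Hpd, Hgd, Fah and Haao, while Kmo stays between 117 and 223 CPM in all 27 mice. How many of all genes tested had such groups without overlap was not counted.

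CCl4 alone lowered most of the tyrosine route. Hpd was at 2497, 2043, 2047 and 2556 CPM in control mice and at 875 and 453 CPM in CCl4 mice. It fell 3.44-fold (log2 fold change -1.78 with a standard error, SE, of 0.348, adjusted p = 0.000349, edgeR's quasi-likelihood test). Both CCl4 mice lay well below every control mouse, and the second was lower than the first. Fah was at 770, 841, 904 and 777 CPM in control and at 466 and 249 CPM in CCl4 mice (log2 fold change -1.20, SE 0.277, adjusted p = 0.00171). Hgd was at 569, 485, 613 and 630 CPM in control and at 421 and 218 CPM in CCl4 mice (log2 fold change -0.84, SE 0.249, adjusted p = 0.0111). For both genes the groups did not overlap. How many of all genes tested had groups without overlap was not counted, here or in the comparisons below. Tat varied most in control mice, at 506, 697, 951 and 1654 CPM (coefficient of variation 52.8%), and was at 466 and 242 CPM in CCl4 mice. The change was -1.43 on the log2 scale (SE 0.467, adjusted p = 0.0206), and the higher CCl4 mouse came close to the lowest control mouse.

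In the kynurenine route, Haao fell while Tdo2 and Kmo did not pass the test. Haao was at 553, 568, 741 and 577 CPM in control mice and at 220 and 80.3 CPM in CCl4 mice, a 4.07-fold fall and the largest of the 9 in this comparison (log2 fold change -2.02, SE 0.337, adjusted p = 6.03e-05). Tdo2 was at 942, 707, 706 and 1317 CPM in control and at 1061 and 554 CPM in CCl4 mice, with overlapping groups and a log2 fold change of -0.18 (95% interval -0.81 to 0.44). Kmo was at 181, 150, 156 and 212 CPM in control and at 194 and 180 CPM in CCl4 mice (log2 fold change 0.10, 95% interval -0.31 to 0.50). Kmo was the steadiest of the 9 genes, since its 8 group means differed at most 1.16-fold.

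The transaminase genes differed as well. Got1 was at 234, 164, 342 and 359 CPM in control and at 178 and 123 CPM in CCl4 mice (log2 fold change -0.87, SE 0.311, adjusted p = 0.0328) although the groups overlapped. Gpt was at 421, 379, 336 and 451 CPM in control and at 445 and 264 CPM in CCl4 mice (log2 fold change -0.16, 95% interval -0.83 to 0.50).

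In all, 6 of the 9 genes fell and 0 rose in CCl4 against control mice, while 16.1% of the 14114 genes tested were called lower. The median log2 fold change was -0.87 over the 9 genes and -0.02 over all genes tested. Leaving out CCl4 mouse 2 leaves a single CCl4 library, assumed to vary like the other groups, and fewer calls over all genes tested. Of the called genes among the 9, only Hpd and Haao then kept their calls. The log2 fold changes of the others without it were -1.01 for Tat, -0.42 for Hgd, -0.80 for Fah and -0.60 for Got1. Tat was also lost without control mouse 4 (log2 fold change -1.01), and Got1 without control mouse 3 (-0.73) or 4 (-0.71).

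Averaged over the 4 arms (CCl4 or olive oil with no treatment, 4MU, siLuc-LNP or siHAS2-LNP), 5 of the 9 genes fell and 0 rose, where 25.6% of all genes tested were called lower. Haao showed the largest fall, with a log2 fold change of -1.12 (SE 0.142, adjusted p = 4.28e-07). Hpd followed at -0.91 (SE 0.147, adjusted p = 1.53e-05), then Got1 at -0.57 (adjusted p = 0.00124), Fah at -0.47 (adjusted p = 0.00224) and Hgd at -0.35 (adjusted p = 0.0107). Tat had a log2 fold change of -0.46 that did not pass (adjusted p = 0.0565), and values for Gpt (0.23), Tdo2 (0.02) and Kmo (-0.05) did not pass either. Without CCl4 mouse 2, Hgd no longer passed (-0.24, adjusted p = 0.0676). Tat did pass when any of 8 single mice was left out, at -0.49 to -0.58, of which the last was without CCl4 mouse 1. The others were control mice 1 and 2, 4MU mouse 3, siLuc-LNP mouse 1, CCl4 + 4MU mouse 4, CCl4 + siLuc-LNP mouse 3 and CCl4 + siHAS2-LNP mouse 4.

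Within each of the 3 treated arms fewer of the genes passed. In siLuc-LNP mice, CCl4 lowered 2 of the 9, against 11.2% of all genes. Hpd was at 2417, 2454 and 2115 CPM without and at 700, 1697, 1812 and 639 CPM with CCl4 (log2 fold change -0.94, adjusted p = 0.0155). Haao was at 535, 639 and 558 CPM without and at 265, 375, 341 and 152 CPM with CCl4 (-1.03, adjusted p = 0.00638). Neither gene overlapped between these groups, but the fibrotic mice of this arm split into a low and a high pair for Hpd. Hpd did not pass without CCl4 + siLuc-LNP mouse 1 (-0.75) or mouse 4 (-0.72). Got1 reached -0.71 with adjusted p = 0.0509, and passed without siLuc-LNP mouse 1 (-0.90) or CCl4 + siLuc-LNP mouse 2 (-0.82).

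In siHAS2-LNP mice only Haao passed, 1 of 9 against 5.09% of all genes called lower. It was at 459, 625 and 605 CPM without and at 273, 272, 231 and 396 CPM with CCl4 (log2 fold change -0.94, adjusted p = 0.0207). All 4 fibrotic mice lay below all 3 others, yet the call was lost without any of siHAS2-LNP mouse 2 (-0.87), siHAS2-LNP mouse 3 (-0.90), CCl4 + siHAS2-LNP mouse 2 (-0.91) or mouse 3 (-0.84). Tat (-0.89), Hpd (-0.72), Hgd (-0.34) and Got1 (-0.61) did not pass, with adjusted p of 0.128, 0.0907, 0.310 and 0.131 by edgeR. For each of these genes too, all 4 fibrotic mice lay below all 3 others. In this arm 4 of the 9 genes had an unadjusted p under 0.05, as did 3855 of the 14114 genes tested.

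In 4MU mice none of the 9 passed (edgeR, 0 of 9; 1 at an unadjusted p under 0.05), although 23.7% of all genes tested were called in either direction. Hpd was at 2339, 1986 and 2001 CPM without and at 1846, 2086, 1548 and 1925 CPM with CCl4, a log2 fold change of -0.19 (95% interval -0.76 to 0.39). Haao had a log2 fold change of -0.50 (95% interval -1.05 to 0.05) and Fah of 0.03 (-0.44 to 0.51). Gpt was the gene under an unadjusted p of 0.05, with 542, 687, 547 and 654 CPM in CCl4 + 4MU mice against 444, 333 and 377 CPM in 4MU mice (0.66, adjusted p = 0.0987). For Gpt all 4 fibrotic mice of this arm were above the 4MU mice, and for Haao all 4 were below them.

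**Figure D2:**
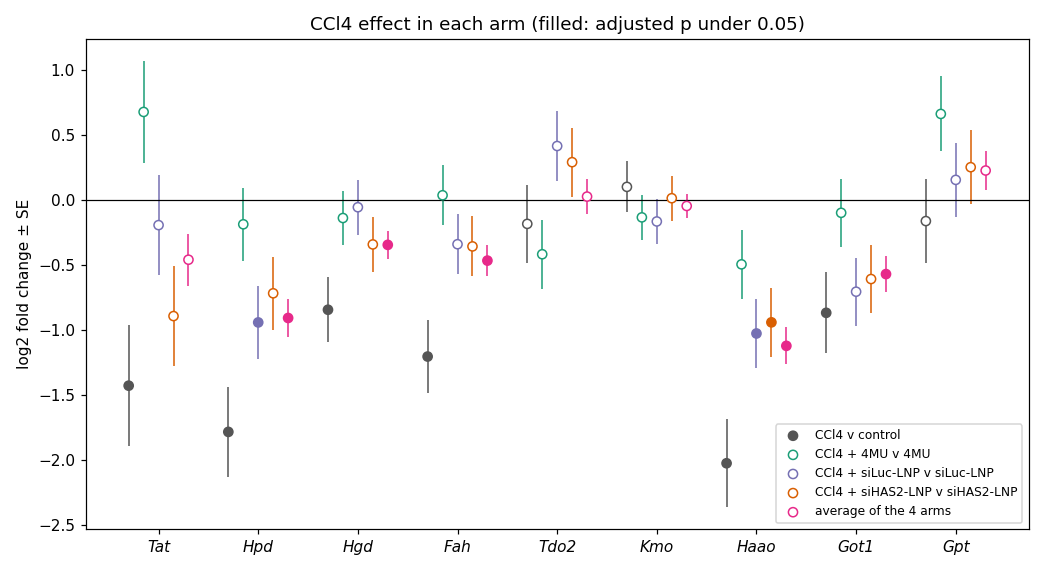
Log2 fold change ± standard error of each gene for CCl4 against no CCl4 in each of the 4 arms and averaged over them, with filled points at an adjusted p under 0.05. Hpd, Fah and Haao lie lowest in the untreated arm (-1.78, -1.20 and -2.02) and nearest to 0 in the 4MU arm (-0.19, 0.03 and -0.50), while Kmo lies near 0 in all 4 arms.

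Hepatocyte marker levels moved with these falls. With libraries scaled to the 10 hepatocyte markers instead of TMM, the median log2 fold change of all genes shifted to 0.34 for the average over the arms and to 0.81 for CCl4 against control. Averaged over the arms, Haao (-0.81) and Hpd (-0.61) stayed lower, while Tdo2 (0.36), Gpt (0.53) and Kmo (0.32) came out higher, so that 2 of the 9 fell and 3 rose where 7.01% and 53.6% of all genes did. Hgd (-0.03), Fah (-0.15) and Got1 (-0.23) no longer passed. In CCl4 against control mice, Haao (-1.32), Hpd (-1.05) and Fah (-0.46) stayed lower and Kmo (0.92) and Gpt (0.59) came out higher. Of all genes, 2.97% were called lower and 59.7% higher there. Haao and Hpd thus also fell relative to the hepatocyte markers, and the direction turned for Kmo in the average over the arms and for Tdo2 and Gpt in CCl4 against control, each from a value smaller than its SE.

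Ratios of 2 genes within a library do not depend on scaling, and 6 were compared between the 14 mice with and the 13 without CCl4. The 2 genes of a pair do not always stand for consecutive steps. The test was an exact permutation within the 4 arms (643125 arrangements, two-sided, Benjamini-Hochberg adjusted over the 6), chosen after the levels had been seen. The ratio of Haao to Kmo was lower with CCl4 by 1.13 on the log2 scale (adjusted p = 0.000201, exact permutation). Without CCl4 the group means were 1.81 (control), 1.62 (4MU), 1.64 (siLuc-LNP) and 1.56 (siHAS2-LNP). With CCl4 they were -0.50 (alone), 1.27 (with 4MU), 0.73 (with siLuc-LNP) and 0.60 (with siHAS2-LNP), and 11 of the 14 CCl4 mice lay below all 13 others. Haao thus fell relative to Kmo, the gene of an earlier step in this route, though not of the step just before.

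Within the tyrosine route the ratio of Hgd to Hpd was higher with CCl4 by 0.59 (adjusted p = 0.000201, exact permutation), with 6 of the 14 CCl4 mice above all others. The ratio of Fah to Hgd differed by -0.13 (adjusted p = 0.138, exact permutation), and that of Kmo to Tdo2 by -0.09 (adjusted p = 0.559). The ratio of Gpt to Got1 was higher by 0.75 (adjusted p = 0.00146, exact permutation), with group means of 0.59 to 0.88 without and 1.21 to 1.71 with CCl4. Hpd to Tat was lower by 0.52 (adjusted p = 0.0379, exact permutation), a call that ended when any of 13 of the 27 mice was left out. The calls for Haao to Kmo, Hgd to Hpd and Gpt to Got1 held with each mouse left out in turn, with adjusted p of at most 0.00497.

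**Figure D3:**
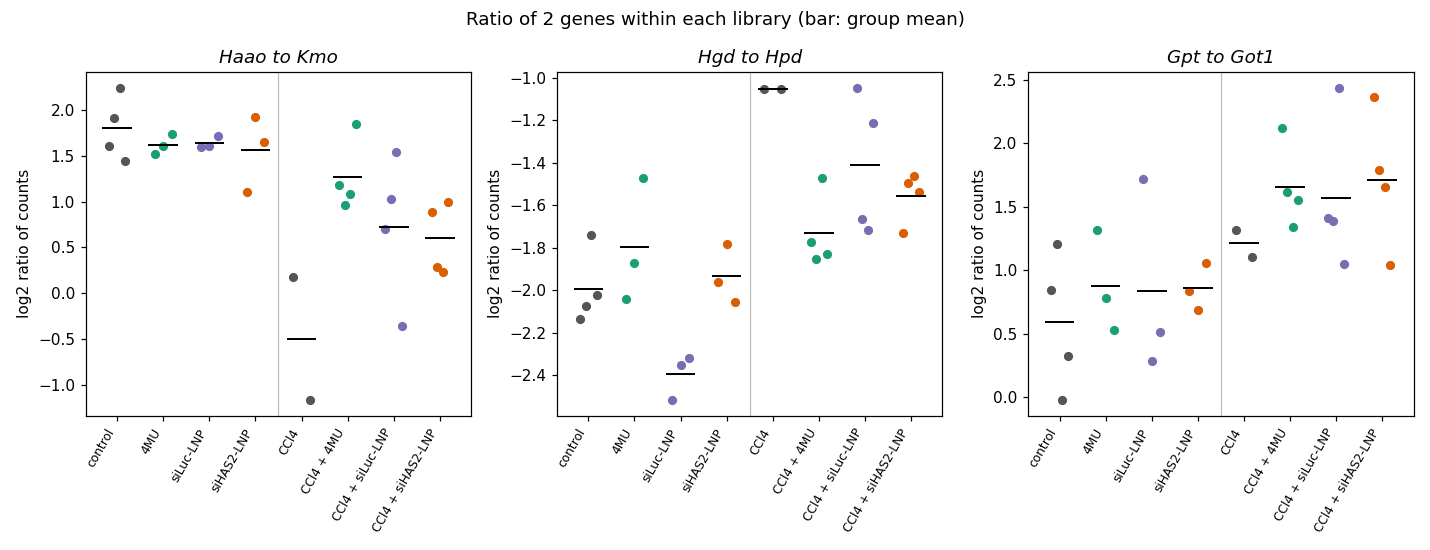
Log2 ratio of counts of Haao to Kmo, Hgd to Hpd and Gpt to Got1 in every mouse (points) with the group mean (bars), without CCl4 left and with CCl4 right of the grey line. The group mean of CCl4 mice is the lowest for Haao to Kmo, at -0.50, and the mean of each CCl4 group lies above that of its own arm without CCl4 for Hgd to Hpd and for Gpt to Got1.

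Fibrotic mice given 4MU had higher levels of 5 of the 9 genes than mice given CCl4 alone, against 8.28% of all genes tested called higher. From these same libraries, the paper lists tyrosine and phenylalanine catabolism among the processes of genes higher with 4MU. The 9 genes were chosen with earlier results of these data known, so the count beside that share is a description and no test. The question of this comparison was what 4MU changes in the fibrotic liver. Tat was at 610, 1330, 1377 and 1597 CPM in CCl4 + 4MU mice against 466 and 242 CPM in CCl4 mice, 3.47-fold higher (log2 fold change 1.80, SE 0.477, adjusted p = 0.0119). Hpd was at 1846, 2086, 1548 and 1925 against 875 and 453 CPM (1.48, SE 0.342, adjusted p = 0.00526). Every CCl4 + 4MU mouse was above both CCl4 mice for both genes. Haao was at 388, 357, 384 and 470 against 220 and 80.3 CPM (1.41, SE 0.326, adjusted p = 0.00514), and so still below the 553 to 741 CPM of control mice. Fah was at 760, 830, 720 and 838 CPM (1.14, adjusted p = 0.00713) and Hgd at 540, 577, 559 and 541 CPM (0.79, adjusted p = 0.0288), both within the range of the mice without CCl4. Gpt had a log2 fold change of 0.78 (adjusted p = 0.101), Tdo2 of 0.38, Got1 of 0.39 and Kmo of -0.17, none of which passed.

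Fibrotic mice given siHAS2-LNP had higher levels of 3 of the 9 than CCl4 mice, against 7.11% of all genes called higher. Hpd was at 1587, 1214, 1161 and 1643 CPM (log2 fold change 1.08, SE 0.334, adjusted p = 0.0325). Fah was at 782, 555, 593 and 608 CPM (0.83, adjusted p = 0.0421) and Haao at 273, 272, 231 and 396 CPM (0.97, adjusted p = 0.0426). All 4 treated mice were above both CCl4 mice for these 3 genes. Tat, at 408, 384, 431 and 724 CPM, had a log2 fold change of 0.46 (95% interval -0.46 to 1.38).

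With the control siRNA, siLuc-LNP, none of the 9 passed against CCl4 mice (0 of 9 by edgeR, 3 at an unadjusted p under 0.05), and 0.248% of all genes did. The log2 fold changes were 0.87 for Hpd (adjusted p = 0.223), 0.78 for Fah (adjusted p = 0.184) and 0.92 for Haao (adjusted p = 0.178). Without CCl4 mouse 2 they were 0.46, 0.38 and 0.35, and without CCl4 + siLuc-LNP mouse 4 the 3 genes passed (1.07, 0.97 and 1.12). Set directly against each other, CCl4 + siHAS2-LNP and CCl4 + siLuc-LNP mice differed in none of the 9 (0 by edgeR, 0 at an unadjusted p under 0.05), where 1.09% of all genes did. The log2 difference was 0.21 for Hpd (95% interval -0.33 to 0.74), 0.05 for Fah (-0.39 to 0.49) and 0.05 for Haao (-0.46 to 0.56). These 3 comparisons share the same 2 CCl4 mice, so their values are not independent of each other.

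**Figure D4:**
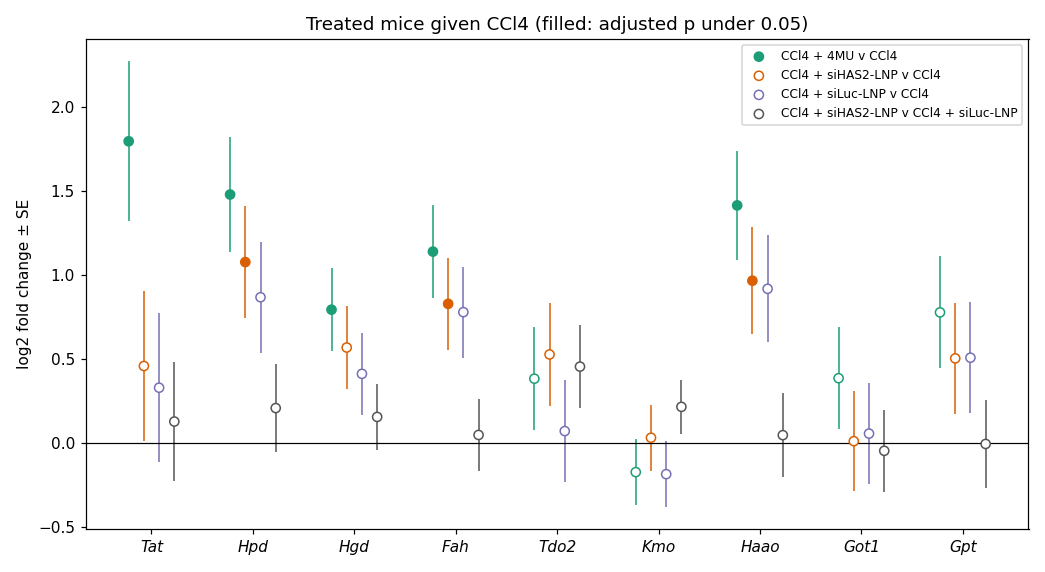
Log2 fold change ± standard error of each gene in treated fibrotic mice against CCl4 mice, and for CCl4 + siHAS2-LNP against CCl4 + siLuc-LNP, with filled points at an adjusted p under 0.05. Tat stands at 1.80 with 4MU but at 0.46 with siHAS2-LNP and 0.33 with siLuc-LNP, whereas Hpd, Fah and Haao lie between 0.78 and 1.48 with each of the 3 treatments and between 0.05 and 0.21 for the siRNAs set against each other.

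These calls rest on the lower of the 2 CCl4 mice. Without CCl4 mouse 2 a single CCl4 library is left, and they were lost, as were most calls over all genes tested. The loss is thus not particular to the 9 genes. The log2 fold changes with 4MU were then 1.37 for Tat, 1.05 for Hpd, 0.83 for Haao, 0.73 for Fah and 0.37 for Hgd. For siHAS2-LNP they were 0.65 for Hpd, 0.42 for Fah and 0.38 for Haao. With siHAS2-LNP, Hpd, Fah and Haao were also lost without CCl4 + siHAS2-LNP mouse 1 (1.01, 0.71 and 1.00) or mouse 4 (0.99, 0.84 and 0.78). Fah was lost without mouse 3 (0.85) and Haao without mouse 2 (0.99) of that group. Hgd was lost for 4MU without CCl4 + 4MU mouse 2 (0.74). Without CCl4 mouse 1, Hgd was past the threshold for siHAS2-LNP (1.11) and Haao for siLuc-LNP (1.82). The hepatocyte marker sums moved along, at 206889 to 243586 CPM in CCl4 + 4MU, 148452 to 222193 in CCl4 + siHAS2-LNP and 156871 to 212789 in CCl4 + siLuc-LNP mice, and their part in the result was not tested.

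Against siHAS2-LNP within fibrotic mice, 4MU changed none of the 9 (0 by edgeR, 1 at an unadjusted p under 0.05), against 1.22% of all genes. Tat came nearest, with a log2 difference of 1.34 (adjusted p = 0.0622), and 3 of its 4 CCl4 + 4MU mice were above all CCl4 + siHAS2-LNP mice. It passed without CCl4 + 4MU mouse 1 (1.56, adjusted p = 0.0416).

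Without CCl4, none of the 9 passed in any treatment comparison. For 4MU against control 0 of 9 were called by edgeR and 1 had an unadjusted p under 0.05, against 0.00709% of all genes called. That gene was Tdo2, at 1206, 907 and 2112 CPM against 707 to 1317 CPM in control mice (0.62, adjusted p = 0.640). For siLuc-LNP against control 0 were called and 1 was under 0.05 (Tat, -0.90, adjusted p = 0.650), against 0.213% of all genes. For siHAS2-LNP against siLuc-LNP 0 were called and 0 were under 0.05, against 0.0425% of all genes. Between the last 2 groups Tat, Tdo2 and Hgd had log2 differences of 0.83, 0.58 and 0.44 (adjusted p of 0.572, 0.562 and 0.582 by edgeR). Their siLuc-LNP means were 509, 637 and 443 CPM. Those of control mice were 952, 918 and 574 CPM, and those of siHAS2-LNP mice 904, 953 and 601 CPM.

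Whether the CCl4 effect differed with treatment was tested by interaction terms. With 4MU it did for 4 of the 9, all upward, against 2.72% of all genes. The log2 difference between the CCl4 effect with and without 4MU was 2.104 for Tat (SE 0.606, adjusted p = 0.0430), 1.60 for Hpd (0.437, adjusted p = 0.0360), 1.53 for Haao (0.417, adjusted p = 0.0356) and 1.24 for Fah (0.357, adjusted p = 0.0430). The 4 adjusted p lay close to the threshold. Fewer of the 9 passed when any of 12 of the 13 mice of this comparison was left out, all except CCl4 mouse 1. Without 4MU mouse 2, 4MU mouse 3 or CCl4 + 4MU mouse 4, 0 passed. Calls over all genes then fell from 800 to 237, 271 and 246. Without CCl4 mouse 2, which leaves a single CCl4 library, the calls were lost too. The values were then 1.69 for Tat, 1.17 for Hpd, 0.95 for Haao and 0.83 for Fah. The interaction of siHAS2-LNP with CCl4, against siLuc-LNP, was called for 0 of 9 by edgeR (0 at an unadjusted p under 0.05), against 0.0354% of all genes.

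Across the 8 group means, all 4 groups without CCl4 stood above all 4 with CCl4 for Hpd, Haao and Got1. For Fah, CCl4 + 4MU mice came above siLuc-LNP and 4MU mice. CCl4 mice had the lowest group mean for Tat, Hpd, Hgd, Fah, Got1, Gpt and Haao. Only 8 of the 63 steps between neighbours in these orders exceeded the larger standard deviation of the pair. Of these, 3 were in Haao, 2 each in Hpd and Fah and 1 in Hgd, and 0 in Tat, Tdo2, Got1, Gpt and Kmo. In Haao the steps lay between siHAS2-LNP (563 ± 90.4 CPM, SD, n = 3) and CCl4 + 4MU (400 ± 48.9, n = 4), between the latter and CCl4 + siHAS2-LNP (293 ± 71.3, n = 4), and between CCl4 + siLuc-LNP (283 ± 98.8, n = 4) and CCl4 (150 ± 98.6, n = 2).

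Mice of the same group also differed in step. In CCl4 + siLuc-LNP mice, mice 1 and 4 were low and mice 2 and 3 high for Hpd (700 and 639 against 1697 and 1812 CPM), Fah (472 and 345 against 770 and 867), Hgd (339 and 275 against 536 and 552), Haao (265 and 152 against 375 and 341) and Gpt (353 and 285 against 513 and 866). Over all 27 mice, deviations from the group mean (log2 CPM) of Hpd, Hgd, Fah and Haao correlated with r of 0.70 to 0.87 in pairs, values that share the scaling of each library. Tat followed Got1 most closely (r = 0.67). Kmo went with none of the 4, at r of -0.49 (Fah) to -0.14 (Hgd). Gpt, which was not called lower with CCl4, also went with Hpd (r = 0.83), Fah (0.82) and Hgd (0.66), and less with Haao (0.47). CCl4 + siLuc-LNP mice 1 and 4 were then left out, a choice made after seeing the levels of these same genes. The outcome is therefore no test of them. It left 0 of the 9 past the threshold for CCl4 + siLuc-LNP against siLuc-LNP, with 2054 calls over all genes (3418 with all mice). For CCl4 + siLuc-LNP against CCl4 it left 5 higher, with 1746 calls over all genes (35 with all mice).

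**Figure D5:**
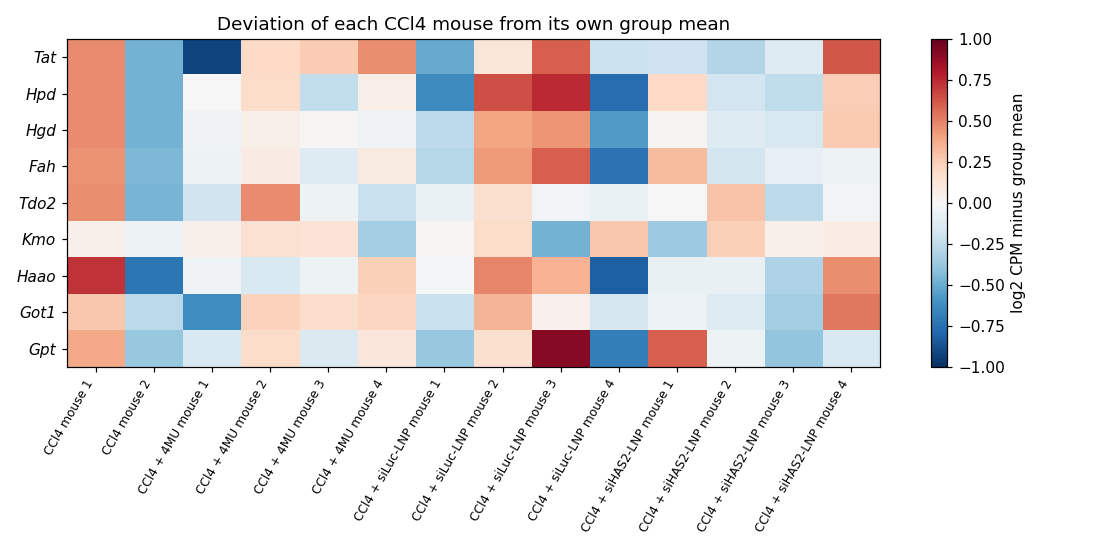
Log2 CPM of each gene minus the mean of its own group (colour scale) in the 14 mice given CCl4. CCl4 mouse 2 and CCl4 + siLuc-LNP mice 1 and 4 are below their group means for Hpd, Hgd and Fah, while Kmo (r of -0.49 to -0.14 with Hpd, Hgd, Fah and Haao over the 27 mice) does not follow.

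For the counts of other genes that follow, 25.6% of all genes tested were called lower and 26.3% higher with CCl4 averaged over the arms. Of 7 further genes of phenylalanine and tyrosine metabolism, 4 fell and 2 rose (median log2 fold change -0.46, against -0.02 over all genes). The largest were Qdpr (-0.95, adjusted p = 1.91e-06), which regenerates the cofactor of phenylalanine hydroxylase, and Gpt2 (0.82, adjusted p = 1.91e-07), the mitochondrial alanine transaminase. Of 9 further genes of the tryptophan route, 2 fell and 2 rose (median -0.02), close to those shares, led by Ido2 (-0.47, adjusted p = 0.000765), a tryptophan dioxygenase, and Qprt (0.46, adjusted p = 0.00103), which acts on the product downstream of Haao. Haao fell and Qprt rose, and Gpt2 rose where Gpt did not pass.

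In the breakdown of other amino acids, the counts differed between lists, and no list was tested as a whole. Of 9 genes of methionine and cysteine breakdown, 6 fell and 1 rose (median -0.77), with the largest changes in Csad (-1.32, adjusted p = 0.000163) and Cdo1 (-1.14, adjusted p = 1.63e-07), both of taurine synthesis from cysteine. Of 18 branched-chain genes, 11 fell and 0 rose (median -0.31), led by Hibadh (-0.91, adjusted p = 7.79e-10) and Aldh6a1 (-0.74, adjusted p = 7.12e-07) of valine breakdown. Of 9 genes for lysine, proline and glutamate, 6 fell and 0 rose (median -0.42), led by Prodh, proline dehydrogenase (-1.19, adjusted p = 0.000396), and Gcdh, glutaryl-CoA dehydrogenase (-0.72). Of 4 genes of histidine breakdown, 2 fell, Amdhd1 (-0.67) and Hal, the entry enzyme (-0.41). Of 7 tested genes for serine, threonine and glycine, 1 fell and 2 rose, with Agxt (-0.68), which detoxifies glyoxylate, and Sdsl (0.61) leading.

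The transporters and regulators held genes called in both directions, apart from the transcription factors. Of 9 amino acid transporters, 4 fell and 3 rose with CCl4, led by Slc16a10, a carrier of aromatic amino acids (-1.16, adjusted p = 3.42e-10), and Slc7a5, a light chain of a large neutral amino acid carrier at a mean of 2.24 CPM (1.00, adjusted p = 2.56e-05). Of the glucocorticoid receptor and 8 genes known to respond to it, 3 fell and 3 rose, led by Igfbp1 (1.65, adjusted p = 0.000666) and Pck1 (-1.01, adjusted p = 0.000947), a gluconeogenic enzyme. Of 11 hepatocyte transcription factors, 4 fell and 0 rose, led by Nr1i3 (-1.30, adjusted p = 1.45e-06) and Cebpa (-0.65, adjusted p = 0.000372). Of 56 called among the 92 genes of all these lists, 49 stayed past the threshold without CCl4 mouse 2, and every gene named above for them was among the 49.

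In CCl4 + 4MU against CCl4 mice, the largest changes past the threshold in all these lists were in Prodh (2.73, adjusted p = 0.00535), Gnmt, which disposes of surplus methyl groups (2.396, adjusted p = 0.00773), and Nr1i3 (1.86, adjusted p = 0.00459). With siHAS2-LNP they were in Prodh (2.02, adjusted p = 0.0284), Nr1i3 (1.504, adjusted p = 0.0181) and Cth, cystathionine gamma-lyase (1.12, adjusted p = 0.0325). These calls too were lost without CCl4 mouse 2, along with most calls over all genes tested. Without it, Prodh was at 2.04, Gnmt at 1.65 and Nr1i3 at 1.56 with 4MU, and Prodh at 1.33, Nr1i3 at 1.20 and Cth at 0.66 with siHAS2-LNP. Neither siLuc-LNP against CCl4 nor siHAS2-LNP against siLuc-LNP in fibrotic mice had any gene of the lists past the threshold. Between 4MU and siHAS2-LNP in fibrotic mice, Per1 (2.26, adjusted p = 0.0345) and Pck1 (2.00, adjusted p = 0.0231), of the glucocorticoid-responsive list, and Cebpb (1.498, adjusted p = 0.0274) were the largest, all higher with 4MU.

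The genes most like the 9 over the 8 group means of log2 CPM, among 7792 genes with a mean of at least 10 CPM, were Elmo3 for Hpd (r = 0.998), Apoc1 for Fah (r = 0.997), Scap for Got1, Aup1 for Haao, Prpf19 for Tat, Cxxc1 for Hgd, Bap1 for Gpt, Rexo4 for Tdo2 and Acadm for Kmo (r = 0.914). Of these, Apoc1 also followed Fah in deviations from the group mean (r = 0.92 over 27 mice), and Elmo3 followed Hpd (r = 0.73). Rexo4 and Tdo2 went the opposite way (r = -0.39).

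Markers of other cell types differed with CCl4 too. Summed levels of 4 markers of dividing cells were 5.19 to 10.04 CPM in control mice, 244 and 508 CPM in CCl4, 37.5 to 167 CPM in CCl4 + 4MU, 125 to 422 CPM in CCl4 + siLuc-LNP and 122 to 144 CPM in CCl4 + siHAS2-LNP mice. The 8 markers of stellate cells and myofibroblasts summed to 224 to 322 CPM in control and to 673 and 895 CPM in CCl4 mice, and 5 cholangiocyte markers to 34.5 to 77.0 CPM and to 241 and 297 CPM. Averaged over the arms, all 4 markers of dividing cells, 6 of the 8 of stellate cells, all 5 of cholangiocytes, 5 of 7 of monocytes and macrophages (median log2 fold change 1.24) and 3 of 5 of endothelium were called higher. Called lower were 4 of 5 Kupffer cell markers (median -0.54), all 3 of red cells, 1 each of stellate cells and endothelium, and of 4 for T, NK and B cells 1 was lower and 1 higher. The Kupffer cell markers summed to 296 to 458 CPM in control, 242 and 268 CPM in CCl4, 186 to 381 CPM in CCl4 + 4MU, 112 to 195 CPM in CCl4 + siLuc-LNP and 89.2 to 124 CPM in CCl4 + siHAS2-LNP mice. In CCl4 + siHAS2-LNP against CCl4 mice 4 of these 5 were lower (median -1.72), where 2038 of the 14114 genes tested were called in either direction. This count was not repeated without CCl4 mouse 2. The part of these markers in the levels of the 9 genes was not tested.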

How the data were processed

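Poly(A) RNA of 27 livers was sequenced in pairs on a NextSeq500. Per the labels and methods, the authors trimmed reads with Trimmomatic 0.39, aligned them to GRCm39 with HISAT2 and deposited raw counts per gene from featureCounts, without multi-mapping reads. The HISAT2 version and the strand setting are not given in the sources used here. The 14114 of 55414 genes averaging 10 or more counts over the libraries were tested with edgeR 4.0.16 in R 4.3.3 (TMM scaling, quasi-likelihood test, all 8 groups in 1 fit, Benjamini-Hochberg adjusted p under 0.05), and the same steps were tested on simulated data. DESeq2 1.42.0, other filters, scaling and fits, and each mouse left out in turn were the alternatives. The members and lists were chosen with earlier results of these data known, and the ratios and the exclusion of 2 CCl4 + siLuc-LNP mice after the values were seen. From each list, the genes named were the largest changes past the threshold. Log2 CPM used a prior count of 2. The depth of 7044386 to 29425937 counts gives 3 counts a level of 0.102 to 0.426 CPM, and p-values measure the spread between mice. The 34 pairs of mice within groups differed by a chi-square of 15.9 to 458 per gene, so none was a repeated deposit of the same library.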

Additional observations from a re-analysis of the deposited data

Results flagged for a closer look

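In 36 groups of 4 mice (the 9 genes in each of 4 groups), 3 held a mouse whose gap to the nearest other, as a share of the group's range, exceeded Dixon's 95% critical value, where chance gives about 1 in 20. Tat in CCl4 + siHAS2-LNP mouse 4 was at 724 CPM beside 384, 408 and 431 CPM (gap share 0.862), in the shallowest library. Got1 in CCl4 + 4MU mouse 1 was at 124 CPM beside 216, 222 and 224 CPM (0.923). Haao in control mouse 3 was at 741 CPM beside 553, 568 and 577 CPM (0.869).

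The CCl4 effect differed between mice with and without 4MU by the interaction term for Tat (2.104 on the log2 scale), Hpd (1.60), Haao (1.53) and Fah (1.24), with adjusted p between 0.0356 and 0.0430 by edgeR's quasi-likelihood test. Without CCl4 mouse 2, which leaves a single CCl4 library, the 4 calls were lost, as were most calls over all genes.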

How the results depend on the processing

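Outside the average over the arms and CCl4 against control, 55 log2 fold changes of the 9 genes were no larger than their SE, and 110 of their 757 alternative values changed sign, none with a call. For the other 80, with 1214 alternative values, 1064 kept their direction and side of the threshold, 89 lost a call, 47 gained one and 14 changed sign. With each mouse left out in turn, genes past the threshold numbered 4 to 6 for CCl4 averaged over the arms, 2 to 6 for CCl4 against control, 0 to 0 in the 4MU arm, 1 to 3 in the siLuc-LNP arm and 0 to 1 in the siHAS2-LNP arm. Against CCl4 they numbered 0 to 5 with 4MU, 0 to 4 with siHAS2-LNP and 0 to 3 with siLuc-LNP, then 0 to 1 for 4MU against siHAS2-LNP with CCl4 and 0 to 5 for the 4MU interaction. In the fits with 0 in the siHAS2-LNP arm, calls over all genes fell too, from 1812 to between 1036 and 1301. With only the compared groups fitted, 2 passed in the 4MU arm (0 in the fit of all groups), 1 in the siLuc-LNP arm (2), 4 in the siHAS2-LNP arm (1) and 1 for siHAS2-LNP against CCl4 (3). Over all genes, 3418, 1518, 2309 and 1631 were then called, in that order (3350, 3418, 1812 and 2038). Without the count filter, 1 passed in the 4MU arm (0), 4 in the siHAS2-LNP arm (1), 1 for siLuc-LNP against CCl4 (0) and 1 for 4MU against siHAS2-LNP with CCl4 (0), the last also 1 by DESeq2. CCl4 + siLuc-LNP mice 1 and 4 were left out after the levels of these same genes had been seen. Then 0 passed in the siLuc-LNP arm (2), with 2054 calls over all genes (3418), and 5 for siLuc-LNP against CCl4 (0), with 1746 (35). Fah in the siLuc-LNP arm turned to 0.0832. With hepatocyte-marker scaling, Kmo averaged over the arms turned to 0.32, and Tdo2 and Gpt in CCl4 against control to 0.54 and 0.59. With single mice left out, Tdo2 ranged from -0.10 to 0.13 averaged over the arms, from -0.71 to 0.23 in CCl4 against control and from -0.0416 to 0.91 in CCl4 + 4MU against CCl4, Gpt from -0.57 to 0.19 in CCl4 against control, and the log2 ratio of Kmo to Tdo2 from -0.19 to 0.0131. The causes were not tested.

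With the replicate number as a block, 2 passed in the siHAS2-LNP arm (1) and 1 for the 4MU interaction (4). Over all genes, 1538 and 561 were then called (1812 and 800). The numbers did not pair the mice: deviations of 83 same-numbered pairs correlated with r of -0.32 to 0.29, and 4 of 27 libraries correlated best with their own number.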
